A study of Mus musculus with 2 samples.

Results

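The matrix metalloproteinase (MMP) genes analysed here were Mmp2, Mmp3, Mmp9, Mmp10, Mmp11, Mmp12, Mmp13, Mmp14, Mmp19 and Mmp23. They are 10 of the 31053 genes in the count tables, which hold 12 other MMP genes as well. Their mRNAs were measured by droplet single-cell RNA sequencing in primary vascular smooth muscle cells (VSMCs) from the aorta of wild type mice, harvested on day 5 of culture in full medium, which is DMEM with 10% fetal calf serum. The study deposited 2 libraries, called replicate 1 and replicate 2, of this single condition, and several aortae were usually pooled for a preparation. No untreated or control group was part of the design, so the comparisons are between sets of cells from the same 2 cultures. The age and sex of the animals of these libraries were not given in the sources used here.

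MMPs are zinc-dependent proteases that cut collagens, elastin, proteoglycans and other proteins of the extracellular matrix. Most are secreted as inactive proenzymes and are activated when their propeptide is removed, while tissue inhibitors of metalloproteinases (TIMPs) block the active site. In the vessel wall, VSMCs that leave the contractile state and macrophages both make MMPs, and the enzymes take part in VSMC migration and in the breakdown of matrix in atherosclerotic plaques.

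Cells were divided by their unique molecular identifier (UMI) counts of a few genes. Myh11, the smooth muscle myosin heavy chain, marks contractile VSMCs: cells with at least 5 Myh11 UMIs are called Myh11-high (473 cells in replicate 1, 879 in replicate 2) and cells with at most 1 are called Myh11-low (3954 and 5362 cells). Gpnmb+ cells held at least 1 UMI of Gpnmb, which encodes a transmembrane glycoprotein (1908 and 4902 cells), and Il1rn+ cells at least 1 UMI of Il1rn, the interleukin-1 receptor antagonist (1026 and 318 cells). Endothelial cells (ECs) held at least 2 UMIs of at least 2 of the 4 genes Pecam1, Cdh5, Cldn5 and Gja4 (102 and 141 cells) and were left out of the other sets. The Gpnmb+ and Il1rn+ sets overlapped the Myh11-low set, which held 85.7% and 87.9% of the Gpnmb+ cells and 89.0% and 94.3% of the Il1rn+ cells in replicates 1 and 2. The Gpnmb+ and Il1rn+ sets took different shares of the cultures: 39.2% and 71.8% of cells were Gpnmb+ and 21.1% and 4.66% were Il1rn+.

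Replicate 1 had 127949633 UMIs in all and 4866 cells with a median of 22234.5 UMIs, and replicate 2 had 132561822 UMIs and 6824 cells with a median of 16310 UMIs. The libraries shared 9 cell barcodes, with 4.89 expected from random draws. Free RNA, estimated from endothelial genes in cells that are no ECs, made up 3.16% and 3.81% of a cell's UMIs. A list of 7 contractile genes summed to 23100 and 23400 UMIs per 1000000 UMIs of the set (counts scaled this way are called CPM) in Myh11-high cells and to 6130 and 3370 CPM in Myh11-low cells, and 7 endothelial genes summed to 3710 and 4110 CPM in ECs against at most 11.3 CPM in the other sets. The contractile list includes Myh11 and the endothelial list the 4 EC gate genes, so the gates fixed part of both differences. ECs were shallower (medians of 14629 and 10250 UMIs) than Myh11-high (25667 and 21018) and Myh11-low cells (21979 and 15639.5). A list of 5 adventitial fibroblast genes (Pi16, Dpt, Clec3b, Cd34 and Dpep1) summed to 301 and 426 CPM in ECs. In Myh11-low cells it summed to 82.5 and 74.8 CPM. The list includes Cd34 and is thus not specific to fibroblasts. The part of these genes in the endothelial values was not tested.

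Of the members, 4 lie in the MMP cluster of mouse chromosome 9 (GRCm38), in the order Mmp13 (chr9:7272514-7283331), Mmp12 (chr9:7344381-7369499), Mmp3 (chr9:7445822-7455975) and Mmp10 (chr9:7502352-7510240), all on the plus strand. The other members are spread over the genome: Mmp9 (chr2:164940780-164955850), Mmp23 (chr4:155650655-155653384), Mmp2 (chr8:92827291-92853420), Mmp11 (chr10:75923222-75936496), Mmp19 (chr10:128790910-128800824) and Mmp14 (chr14:54431612-54445364), with Mmp11 and Mmp23 on the minus strand. All 10 are annotated as protein-coding. In these cultures the UMIs of these 4 genes were spread unevenly over the cells, and their upstream sequences are shown for that reason beside that of Mmp14, which was found in most cells. The sequences are the 250 bases before a RefSeq start (GRCm38.p6, plus strand), and capitals mark matches to the AP-1 motif TGAGTCA (or its reverse complement TGACTCA) and to the TATA motif TATAAA, searched on both strands.
Mmp13 chr9:7272264-7272513: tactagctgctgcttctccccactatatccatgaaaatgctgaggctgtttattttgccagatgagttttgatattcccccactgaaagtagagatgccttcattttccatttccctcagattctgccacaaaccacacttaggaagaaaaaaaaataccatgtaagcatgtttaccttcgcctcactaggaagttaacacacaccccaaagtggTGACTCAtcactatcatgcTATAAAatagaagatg
Mmp12 chr9:7347124-7347373: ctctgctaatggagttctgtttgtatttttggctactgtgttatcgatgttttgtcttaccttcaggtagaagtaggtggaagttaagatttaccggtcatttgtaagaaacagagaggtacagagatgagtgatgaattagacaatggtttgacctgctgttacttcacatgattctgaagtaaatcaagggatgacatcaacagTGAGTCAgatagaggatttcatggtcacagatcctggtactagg
Mmp3 chr9:7445572-7445821: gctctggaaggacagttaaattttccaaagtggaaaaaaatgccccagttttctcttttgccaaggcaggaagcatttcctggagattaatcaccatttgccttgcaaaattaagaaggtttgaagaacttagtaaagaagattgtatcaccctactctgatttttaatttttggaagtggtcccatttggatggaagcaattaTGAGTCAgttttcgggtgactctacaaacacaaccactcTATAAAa
Mmp10 chr9:7502092-7502341: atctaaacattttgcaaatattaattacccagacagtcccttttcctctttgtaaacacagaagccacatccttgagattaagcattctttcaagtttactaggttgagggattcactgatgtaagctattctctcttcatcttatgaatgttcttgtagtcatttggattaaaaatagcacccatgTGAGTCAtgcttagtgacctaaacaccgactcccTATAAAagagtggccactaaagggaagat
Mmp14 chr14:54431348-54431597: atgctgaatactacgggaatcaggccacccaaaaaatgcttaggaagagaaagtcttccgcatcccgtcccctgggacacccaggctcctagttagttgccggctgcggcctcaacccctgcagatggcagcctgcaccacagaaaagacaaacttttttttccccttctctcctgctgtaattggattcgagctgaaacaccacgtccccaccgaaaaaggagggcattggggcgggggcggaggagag

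An AP-1 match began 35 bases before the start of Mmp13, 44 before the second listed start of Mmp12, 46 before that of Mmp3 and 63 before that of Mmp10. It occurred in 4.46% of the 32851 RefSeq promoters of that length. The second Mmp12 start, whose window is printed, lies 2993 bases inside the annotated gene. The first, 16 bases from the annotated start of the gene, had no AP-1 match. TATAAA was present in Mmp13, Mmp3 and Mmp10 and in 12.4% of promoters. Neither was found in this window of Mmp14, Mmp11 or Mmp23, nor at the first listed start of Mmp12. The GC box GGGCGG (or CCGCCC) occurred 2 times each in Mmp14 and Mmp11 and in 32.7% of promoters. RefSeq entries were found for 7 of the 10 members, and Mmp2, Mmp9 and Mmp19 had none in the table used. These matches describe the letters of the window and were not tested as binding sites.

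The levels of the members fell into 3 kinds. Mmp14, Mmp23 and Mmp2 were found in a large part of the cells, Mmp3, Mmp19 and Mmp11 in a smaller part, and Mmp12, Mmp13, Mmp9 and Mmp10 in under 1% of all cells. UMI counts come from the ends of transcripts and are not scaled to length, so levels were compared between cell sets for each gene, not between genes. Over the 10 members, the summed level was 353 and 228 CPM in Myh11-high cells, 444 and 504 in Myh11-low cells, 462 and 489 in Gpnmb+ cells, 465 and 573 in Il1rn+ cells, and 208 and 171 in ECs. The EC values lay below those of all other sets in both replicates. Of the ECs, 26.5% and 39.0% held no UMI of the 6 common members, against 3.03% and 3.80% of the deeper Myh11-low cells.

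**Figure D1:**
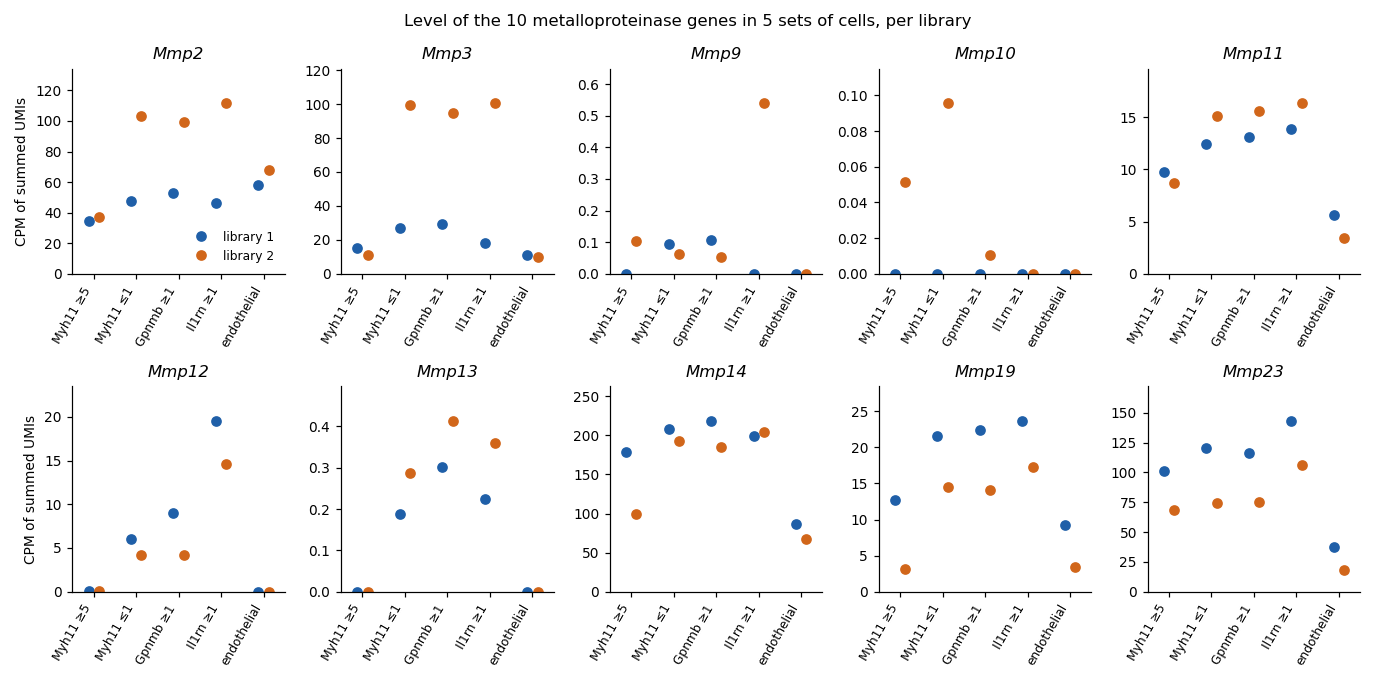
Level of each of the 10 MMP genes (CPM, linear axis from 0, a scale of its own in each panel) in the 5 cell sets, with 1 point per replicate (library 1 or 2). Mmp14 and Mmp23 were lowest in ECs in both replicates, and Mmp2 and Mmp3 were higher in replicate 2 than in replicate 1 in Myh11-low cells.

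Mmp14 encodes membrane-type 1 MMP, a cell-surface collagenase that also activates proMMP-2. Its level was 179 CPM in replicate 1 and 99.1 CPM in replicate 2 in Myh11-high cells, 208 and 192 CPM in Myh11-low cells, 219 and 186 CPM in Gpnmb+ cells, 199.7 and 205 CPM in Il1rn+ cells and 86.6 and 68.0 CPM in ECs. The order was thus ECs, then Myh11-high cells, then the remaining 3 sets, which did not differ beyond the spread between the replicates. A UMI of Mmp14 was found in 91.7% and 86.9% of Myh11-low cells, in 92.8% and 76.6% of Myh11-high cells and in 55.9% and 41.8% of ECs. Thinned to 3000 UMIs per cell, these shares were 44.0% and 42.1%, 39.3% and 24.0%, and 18.1% and 15.0%. Free RNA alone would give a UMI in 7.32% and 5.98% of all cells.

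Mmp23 encodes a membrane-anchored MMP that is released by cleavage. Its level was 101 and 68.2 CPM in Myh11-high cells, 121 and 74.4 CPM in Myh11-low cells, 117 and 74.9 CPM in Gpnmb+ cells, 144 and 107 CPM in Il1rn+ cells and 37.7 and 18.3 CPM in ECs. Replicate 1 was higher in every set, and only the EC values stood apart from all other sets. A UMI was found in 82.0% and 60.1% of Myh11-low cells but in 14.7% and 9.22% of ECs, where free RNA alone would give 6.02% and 3.09%.

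Mmp2, or gelatinase A, cuts denatured collagen and collagen IV. Its level was 34.4 and 37.0 CPM in Myh11-high cells, 47.7 and 103 CPM in Myh11-low cells, 52.7 and 99.1 CPM in Gpnmb+ cells, 46.6 and 112 CPM in Il1rn+ cells and 58.1 and 68.0 CPM in ECs. In contrast to Mmp14 and Mmp23, the EC level of Mmp2 lay within the range of the Myh11-low cells, and the Myh11-high cells were lowest. Mmp2 made up 27.9% and 39.8% of the summed MMP level of ECs and 10.7% and 20.5% of that of Myh11-low cells. Shares of cells with a UMI were 46.1% and 37.6% in ECs and 41.7% and 39.5% in Myh11-high cells. In Myh11-low cells they were 44.0% and 62.1%. Thinned to 3000 UMIs per cell, the shares were 16.2% and 15.2% in ECs and 9.14% and 9.14% in Myh11-high cells. In Myh11-low cells the thinned shares were 11.5% and 24.0%. At this equal depth, ECs thus lay above Myh11-high cells in both replicates.

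Mmp3, or stromelysin-1, cuts proteoglycans and fibronectin and activates other proMMPs. Its level was 15.5 and 11.2 CPM in Myh11-high cells, 27.0 and 99.5 CPM in Myh11-low cells, 29.3 and 94.6 CPM in Gpnmb+ cells, 18.1 and 101 CPM in Il1rn+ cells and 11.2 and 9.71 CPM in ECs. Replicate 2 was higher in the Myh11-low, Gpnmb+ and Il1rn+ sets, while Myh11-high cells and ECs were low in both. A UMI was found in 15.2% and 30.0% of Myh11-low cells, 10.8% and 7.17% of Myh11-high cells and 5.88% and 6.38% of ECs. Free RNA alone would give 1.32% and 3.83% in Myh11-low cells, 1.54% and 4.82% in Myh11-high cells and 1.05% and 2.73% in ECs.

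Mmp19 encodes a secreted MMP of the basement membrane. Its level was 12.7 and 3.09 CPM in Myh11-high cells, 21.6 and 14.6 CPM in Myh11-low cells, 22.4 and 14.1 CPM in Gpnmb+ cells, 23.7 and 17.3 CPM in Il1rn+ cells and 9.17 and 3.43 CPM in ECs. Mmp11, or stromelysin-3, is activated inside the cell by furin. Its level was 9.79 and 8.70 CPM in Myh11-high cells, 12.4 and 15.2 CPM in Myh11-low cells, 13.1 and 15.6 CPM in Gpnmb+ cells, 13.9 and 16.4 CPM in Il1rn+ cells and 5.61 and 3.43 CPM in ECs. For both genes, ECs and Myh11-high cells lay below the other 3 sets, which overlapped. The EC range lay within that of Myh11-high cells for Mmp19 and below it for Mmp11. Exons of Mmp11 overlap Chchd10 and exons of Mmp19 overlap Tmem198b and an antisense gene on the opposite strand, and exons of Mmp12 overlap Mmp1b, which had no UMI in any cell, likewise.

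**Figure D2:**
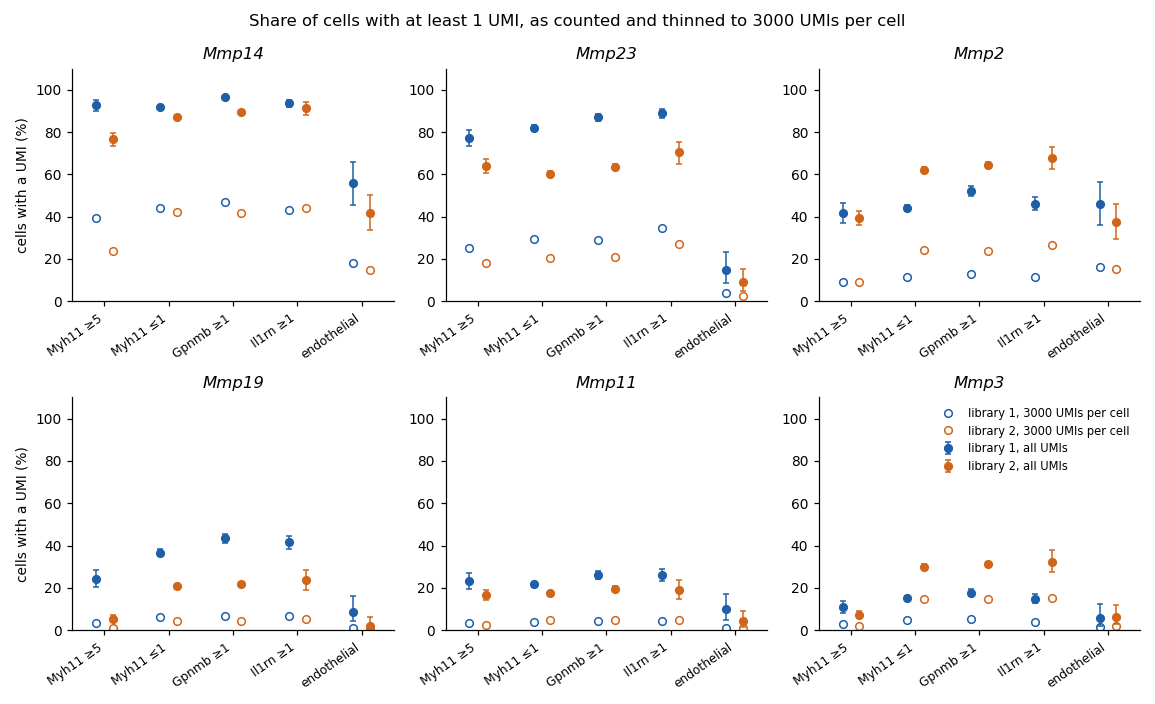
Share of cells with at least 1 UMI (percent) for the 6 common MMP genes in the 5 cell sets, per replicate, with 95% exact binomial intervals that cover counting error only; open symbols give the share after thinning every cell to 3000 UMIs. Thinning lowered all shares, and for Mmp14 and Mmp23 the ECs stayed below the Myh11-low cells in both replicates.

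Mmp12, the macrophage metalloelastase, was carried by few cells. Replicate 1 held 596 Mmp12 UMIs in 25 of 4866 cells and replicate 2 held 391 in 13 of 6824 cells, and the 10 cells with most UMIs accounted for 95.6% and 99.2% of them. The single highest cell held 139 UMIs in replicate 1 and 225 in replicate 2. The level was 6.07 and 4.14 CPM in Myh11-low cells, 9.02 and 4.15 CPM in Gpnmb+ cells and 19.6 and 14.6 CPM in Il1rn+ cells, but only 0.531% and 0.205% of Myh11-low and 1.17% and 1.26% of Il1rn+ cells had any UMI. Myh11-high cells had 1 UMI in replicate 1 (0.0747 CPM) and 2 in replicate 2 (0.103 CPM). ECs had none, which at 3 counts allows up to 1.53 and 1.71 CPM and up to 2.94% and 2.13% of cells with a UMI.

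The cells that carried Mmp12 were set apart by macrophage genes. Of 12 cells in replicate 1 with at least 3 Mmp12 UMIs, 11 held UMIs of at least 3 of the 10 macrophage markers Ptprc, Csf1r, Adgre1, C1qa, C1qb, C1qc, Fcgr3, Fcer1g, Tyrobp and Cx3cr1, as did 4 of 4 in replicate 2. Cells with at least 3 of these markers numbered 14 and 5 in all (0.288% and 0.0733% of cells), and they held 580 and 383 Mmp12 UMIs, or 97.3% and 98.0%. Cx3cr1, a chemokine receptor of monocytes and some macrophages, was at 0 in the cells with at least 3 Mmp12 UMIs, while Ctss, a lysosomal protease of myeloid cells, was found in 10 of 12 and 4 of 4. In replicate 1 the same 12 cells held smooth muscle and matrix RNA as well. The contractile genes Acta2 and Tagln were in 10 and 11, Col1a1 in 10, Mmp14 in 9 and Mmp2 in 7. Their median depth was 39734 UMIs. In replicate 2, Acta2 was found in 3 of the 4 (3 UMIs in all), Tagln in 1, Col1a1 in 1 and neither Mmp14 nor Mmp2 in any. Whether the replicate 1 cells were doublets was not tested.

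Of the 14 and 5 cells with macrophage markers, 13 and 5 fell in the Myh11-low set, 11 and 5 in the Gpnmb+ set and 10 and 2 in the Il1rn+ set. Without them, the Mmp12 level was 0.179 and 0.0850 CPM in Gpnmb+ cells and 0.227 and 0.364 CPM in Il1rn+ cells. Outside them, 12 and 8 cells held an Mmp12 UMI (0.247% and 0.117% of cells, at most 5 and 1 UMIs in a cell), and free RNA alone would give a UMI in 0.281% and 0.0946% of all cells. The cell with 5 UMIs held 1 macrophage marker, 8 Lyz2 UMIs and 54737 UMIs in all.

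**Figure D3:**
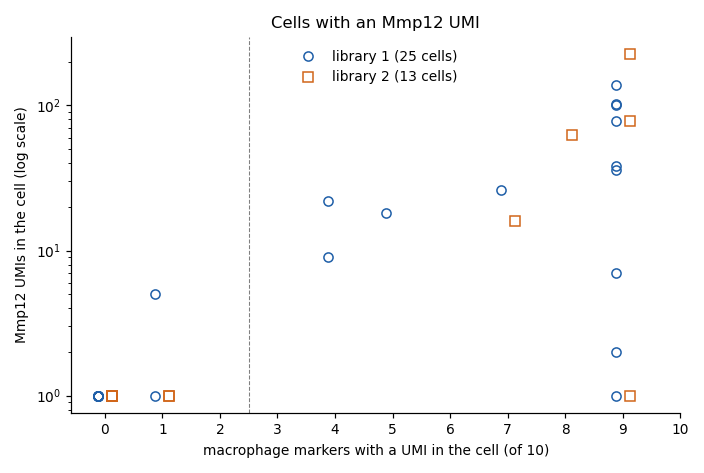
Mmp12 UMIs (log axis) of each of the 25 cells of replicate 1 and 13 cells of replicate 2 that held any, against the number of the 10 macrophage markers found in the same cell; the dashed line separates cells with at least 3 markers, on its right, from the rest. Cells left of the line held at most 5 Mmp12 UMIs, and the cells with 139 and 225 UMIs lie to its right.

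Mmp13, or collagenase 3, cuts fibrillar collagens. It had 18 UMIs in 7 cells of replicate 1 and 42 UMIs in 20 cells of replicate 2, with at most 6 and 14 in a cell. Myh11-high cells and ECs held none. At 3 counts this allows up to 0.224 and 0.154 CPM in Myh11-high cells and up to 1.53 and 1.71 CPM in ECs. Absence of Mmp13 from these sets is therefore not shown. Its level was 0.188 and 0.288 CPM in Myh11-low cells, 0.301 and 0.414 CPM in Gpnmb+ cells and 0.224 and 0.361 CPM in Il1rn+ cells, and these sets overlapped. Of the Mmp13 cells, 4 of 7 and 2 of 20 also held Mmp12, and 2 and 8 held Mmp3.

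Mmp9, or gelatinase B, is made by neutrophils and activated macrophages. It had 10 UMIs in replicate 1 and 8 in replicate 2, each in a cell of its own. Mmp10, or stromelysin-2, had no UMI in the 4866 cells of replicate 1, which allows up to 0.0617% of cells with a UMI, and 10 UMIs in 3 cells of replicate 2. Of these, 8 were in a single cell that also held 36 Mmp3 UMIs. Neither gene had enough counts to be tested between cell sets. Neutrophil markers summed to at most 0.541 CPM in any set.

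Mmp3 was concentrated too, but in other cells. Cells with at least 10 Mmp3 UMIs numbered 83 in replicate 1 and 296 in replicate 2, and they held 1534 of 3044 and 5974 of 9854 Mmp3 UMIs. The 1% of cells with most Mmp3 held 37.5% and 26.3% of its UMIs. For Mmp14 the same share was 4.73% and 5.21%. Of the Mmp3-rich cells, 91.6% and 88.2% held a UMI of Pdgfra, the platelet-derived growth factor receptor alpha of mesenchymal cells, and 68.7% and 84.1% one of Lum, a collagen-binding proteoglycan. In Myh11-low cells with fewer Mmp3 UMIs these shares were 76.7% and 65.8% for Pdgfra and 47.4% and 59.8% for Lum. Sox9, a chondrogenic transcription factor, was in 37.3% and 43.9% of Mmp3-rich cells against 33.1% and 45.1%. Fgf18 was in 56.6% and 22.6% against 44.1% and 20.1%. The Mmp3-rich cells were taken from all cells, not only Myh11-low ones. Their Myh11 level was 30.0 and 13.8 CPM, against 4.36 and 4.45 CPM in those Myh11-low cells. The Mmp3-rich cells were deeper, with medians of 28781 and 18974 UMIs, and the part of depth in these shares was not tested. Of the macrophage genes, Tyrobp, Ptprc, Adgre1, C1qa and C1qc were in none of the Mmp3-rich cells. In replicates 1 and 2, C1qb was in 0 and 1 of them, Mrc1 in 0 and 1, and Fcer1g in 1 and 1. Fcgr3 was in 0 and 2, Cx3cr1 in 1 and 2, Cd68 in 0 and 8 and Cd14 in 3 and 8. Csf1r was in 18.1% and 8.45% of the Mmp3-rich cells, against 8.88% and 5.53% of the Myh11-low cells with fewer Mmp3 UMIs. Lyz2 was in 26.5% and 10.8%, against 11.5% and 5.94%. Mmp12 was in 0 and 1 of the Mmp3-rich cells.

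**Figure D4:**
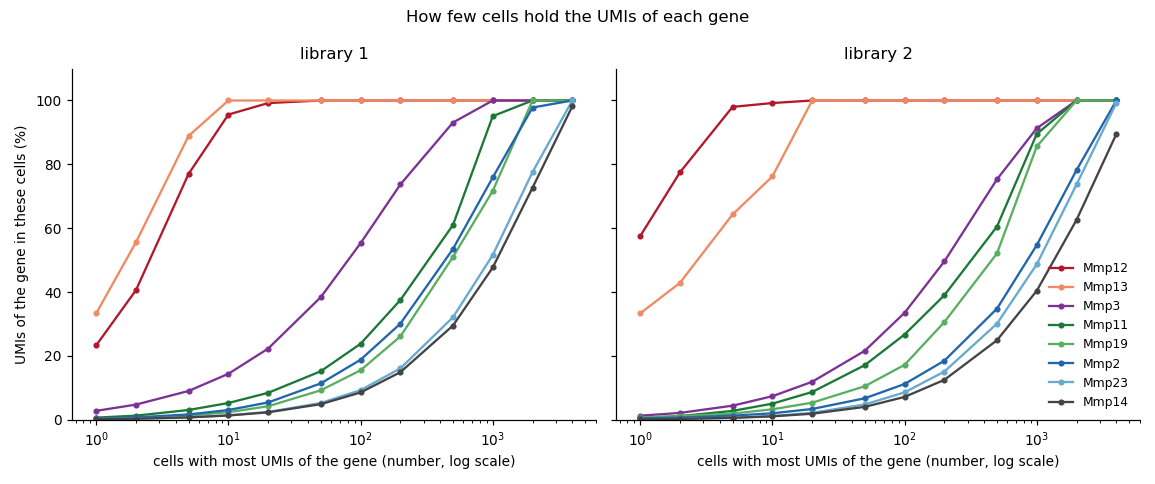
Cumulative share of a gene's UMIs (percent) held by its highest cells, against the number of cells ranked by UMI count (log axis), for 8 MMP genes in each replicate. The top 10 cells held 95.6% and 99.2% of Mmp12, 14.4% and 7.38% of Mmp3 and 1.35% and 1.07% of Mmp14 UMIs; Mmp9 and Mmp10 are not drawn.

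Among Myh11-low cells, the level of Mmp3 in cells with at least 2 Pdgfra UMIs was 2.85 and 2.24 times that in cells with none, and 2.01 and 2.48 times for Lum. For Sox9 it was 0.982 and 0.649 times, and for Fgf18 1.16 and 1.01 times. Mmp11 was lower with Top2a, a proliferation gene: the level in cells with at least 2 Top2a UMIs was 0.648 and 0.487 times that in cells with none. The Mmp11 ratio was 0.546 and 0.608 for Sox9 but 1.27 and 1.77 for Lum. It was 0.861 and 1.01 for Pdgfra and 0.938 and 1.17 for Fgf18. The ratio of Mmp2 for Top2a was 0.756 and 0.684. The ratio of Mmp23 for Il1rn was 1.31 and 1.53. The cells were not matched for depth, and these ratios were not tested. Of the 15 pairs of the 6 common members, Mmp3 and Mmp19 shared cells most often against independence within deciles of UMI count, with 285 cells against 244 expected in replicate 1 and 444 against 355 in replicate 2, while the other 14 pairs had ratios of 0.979 to 1.11.

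The comparison of Myh11-low with Myh11-high cells asks whether MMP mRNA differs between cells with lower and cells with higher contractile gene expression. Counts were summed per replicate and class and fitted in edgeR with quasi-likelihood, and p-values were adjusted by Benjamini-Hochberg over every gene tested. Of the 12975 genes tested, 0.963% passed an adjusted p of 0.05 (18 or 0.139% higher and 107 or 0.825% lower in Myh11-low cells). DESeq2 called 6.2% (243 higher and 561 lower), so that 30.2% of its calls were higher against 14.4% by edgeR. Of the members, 7 could be tested and none passed. Mmp12 met the count filter only through its Myh11-low cells and is left out of the counts and medians below. With the replicate as a block, which compares the classes within a culture, 16% of genes passed (977 higher and 1104 lower), with 7.53% higher and 8.51% lower, and 3 of the other 6 members were higher: Mmp2, Mmp3 and Mmp19. The median log2 fold change of the 6 was 0.77 (0.74 with the block), against 0.02 over all genes.

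For Mmp2, the log2 fold change was 1.01 (SE 0.32, edgeR adjusted p = 0.212), and 0.95 (SE 0.24, adjusted p = 0.0392) with the replicate block, with a difference of 0.47 in replicate 1 and 1.48 in replicate 2. For Mmp3 it was 2.18 (SE 0.55, edgeR adjusted p = 0.132), and 2.02 (SE 0.50, adjusted p = 0.0378) with the block. The Mmp3 difference was 0.81 in replicate 1 and 3.15 in replicate 2, so replicate 2 set most of its size. DESeq2 gave Mmp3 an adjusted p of 0.00403. Under the alternatives other than the block and DESeq2 it did not pass, with edgeR adjusted p between 0.0737 (stricter gates) and 0.251 (no filter on low counts). For Mmp19 the log2 fold change was 1.15 (SE 0.74, edgeR adjusted p = 0.558), and 1.39 (SE 0.31, adjusted p = 0.0262) with the block, with 0.76 in replicate 1 and 2.24 in replicate 2. All of these members were higher in Myh11-low cells in both replicates.

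The log2 fold change of Mmp12 was 5.70 (SE 1.36), and 5.65 (SE 0.88) with the block. No call is read for it in either fit, as it met the count filter only through Myh11-low cells. This fold change rested on the 13 and 5 Myh11-low cells with macrophage markers. Without them the level was 0.0945 and 0.064 CPM in Myh11-low and 0.0747 and 0.103 CPM in Myh11-high cells. Mmp12 then had too few counts to be tested. The log2 fold changes of the other members were 0.52 for Mmp11 (SE 0.22, edgeR adjusted p = 0.339), 0.47 for Mmp14 (SE 0.34, edgeR adjusted p = 0.619) and 0.15 for Mmp23 (SE 0.45, edgeR adjusted p = 0.931), and with the block their adjusted p-values were 0.0853, 0.0764 and 0.482. In Mmp14, the difference was 0.21 in replicate 1 and 0.96 in replicate 2.

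ECs were compared with Myh11-low cells, and 4 members were lower in ECs. Of 12975 genes, 16.3% passed the test, with 9.43% higher and 6.84% lower in ECs. Of the 6 members tested beside Mmp12, those 4 were Mmp3, Mmp11, Mmp14 and Mmp23. The log2 fold change was −2.67 for Mmp3 (SE 0.64, edgeR adjusted p = 0.0356), −1.68 for Mmp11 (SE 0.28, edgeR adjusted p = 0.0104), −1.46 for Mmp14 (SE 0.36, edgeR adjusted p = 0.0383) and −1.89 for Mmp23 (SE 0.50, edgeR adjusted p = 0.0468). All were lower in both replicates, with Mmp3 at −1.27 in replicate 1 and −3.36 in replicate 2, Mmp11 at −1.15 and −2.14, Mmp14 at −1.26 and −1.50 and Mmp23 at −1.68 and −2.02. The median over the 6 was −1.64, against −0.03 over all genes.

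Mmp2 did not pass between ECs and Myh11-low cells, with a log2 fold change of −0.34 (SE 0.33, edgeR adjusted p = 0.525), and its difference was 0.28 in replicate 1 and −0.60 in replicate 2. Mmp19 gave −1.59 (SE 0.88, edgeR adjusted p = 0.266), and −1.75 (SE 0.46, adjusted p = 0.0253) with the replicate block. Mmp12 had no UMI in ECs and met the count filter only through Myh11-low cells, so no fold or call is read for it. With the block, 33.1% of all genes (16.4% higher and 16.7% lower) and 5 of the 6 members passed, all of these members lower. When ECs were matched to Myh11-low cells of the same UMI decile (4.73% of genes lower), Mmp3 and Mmp23 no longer passed (log2 fold changes of −1.72 and −1.77, edgeR adjusted p = 0.26 and 0.0613), and without the filter on low counts (3.14% of genes lower) Mmp3, Mmp14 and Mmp23 did not (−2.74, −1.52 and −1.95, edgeR adjusted p = 0.0679, 0.0741 and 0.0888). Mmp11 passed under all alternatives, but its EC counts were low, with 11 and 6 UMIs in 10 and 6 cells. Those of Mmp3 were 22 and 17 UMIs in 6 and 9 cells.

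**Figure D5:**
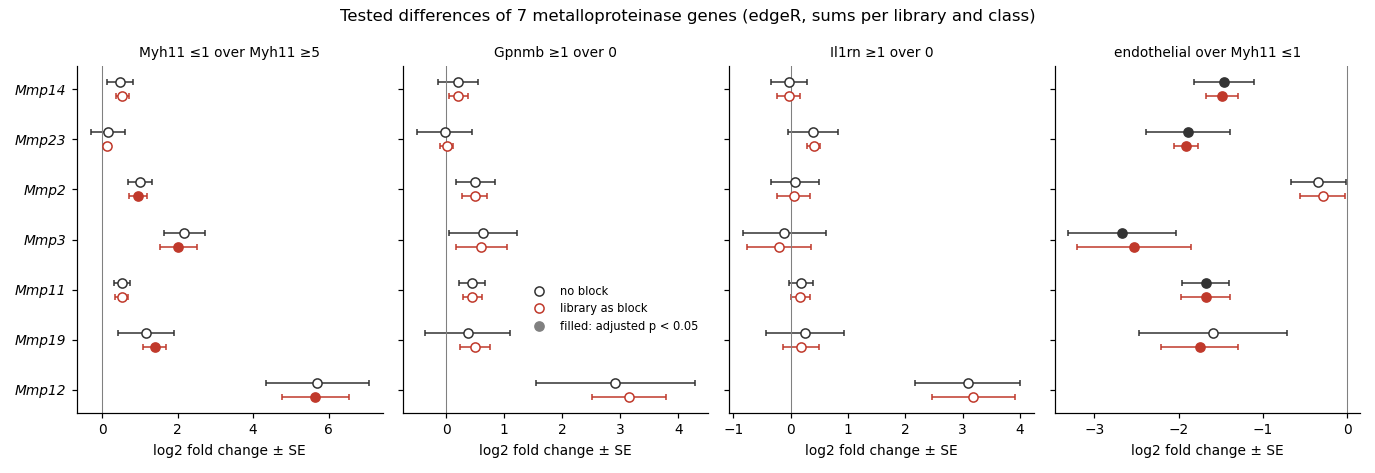
Log2 fold change with its SE of each tested MMP gene in 4 comparisons (Myh11-low over Myh11-high, Gpnmb+ over Gpnmb−, Il1rn+ over Il1rn− and EC over Myh11-low), without the replicate block in black and with it in red; filled symbols passed an adjusted p of 0.05. Mmp12 rests on 13 and 5 cells in the first panel, and on cells with macrophage markers in the Gpnmb and Il1rn panels too. Its filled symbol in the first panel is not read as a call. In the EC comparison 4 members pass without the block (Mmp3, Mmp11, Mmp14 and Mmp23), and Mmp12, at 0 UMIs in ECs, is left out of that panel.

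Within Myh11-low cells, Gpnmb+ cells were compared with Gpnmb− cells. edgeR called none of the 13267 genes (0%), with 60 genes at an unadjusted p under 0.05, and both the replicate block (0.00754%) and DESeq2 called 1 gene, in neither case a member. The log2 fold changes were 0.63 for Mmp3 (SE 0.59), 0.50 for Mmp2 (SE 0.34), 0.44 for Mmp11 (SE 0.22), 0.37 for Mmp19 (SE 0.73), 0.20 for Mmp14 (SE 0.34) and −0.03 for Mmp23 (SE 0.48), all with an edgeR adjusted p of 1. Their median was 0.40, against 0.00 over all genes. With the replicate block the SEs were smaller, at 0.44 for Mmp3, 0.22 for Mmp2, 0.16 for Mmp11, 0.26 for Mmp19, 0.16 for Mmp14 and 0.11 for Mmp23. Mmp12 gave 2.91 (SE 1.37, edgeR adjusted p = 1), or 1.11 in UMI-matched classes and 5.50 with gates in CPM, with 10.4 and 4.85 CPM in Gpnmb+ cells and 1.78 and 0 CPM in Gpnmb− cells. Its fold rested on the cells that held macrophage markers. Without them, Mmp12 was at 0.0851 and 0.0748 CPM (4 and 6 UMIs) in Gpnmb+ cells. In Gpnmb− cells it was then at 0.104 and 0 CPM (5 and 0 UMIs).

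Il1rn+ cells, compared with Il1rn− cells among the Myh11-low cells, gave no call among 13135 genes either (0%), with 294 at an unadjusted p under 0.05. DESeq2 called 24 genes and the replicate block 0. The log2 fold change of Mmp12 was 3.09 (SE 0.92, edgeR adjusted p = 1, and 0.271 with the block), or 7.83 in UMI-matched classes (edgeR adjusted p = 0.533), with 22.5 and 15.8 CPM in Il1rn+ against 0.959 and 3.47 CPM in Il1rn− cells. Mmp23 was at 144 and 107 CPM in Il1rn+ and 114 and 72.5 CPM in Il1rn− cells, a log2 fold change of 0.39 (SE 0.43, edgeR adjusted p = 1, and 0.442 with the block). The other 5 tested members lay between −0.11 (Mmp3) and 0.25 (Mmp19). A macrophage list of 14 genes summed to 176 and 173 CPM in Il1rn+ cells and 70.2 and 37.1 CPM in Myh11-low cells as a whole, and without the cells that held macrophage markers the Mmp12 level in this comparison was 0.0448 and 0.394 CPM (1 and 2 UMIs) in Il1rn+ and 0.11 and 0.0451 CPM (8 and 4 UMIs) in Il1rn− cells.

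Cells with Il1rn and no Gpnmb (535 and 46 Myh11-low cells) were also compared with cells with Gpnmb and no Il1rn (1258 and 4055). edgeR called 1 of 13333 genes (0.0075%), with 640 at an unadjusted p under 0.05, and no member passed with or without the block, which called 0.608% of genes. Mmp3 was at 22.6 and 37.6 CPM in the Il1rn cells and 34.6 and 105 CPM in the Gpnmb cells, a log2 fold change of −1.42 (SE 0.85, edgeR adjusted p = 1). Mmp14 gave −0.29 (SE 0.30) and Mmp23 0.38 (SE 0.45), each with an edgeR adjusted p of 1. The Il1rn class of replicate 2 rested on its 46 cells.

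The protease system around the MMPs was described with 7 lists of 81 genes in all, of which 80 are in the tables. Between Myh11-low and Myh11-high cells, 3 of the 65 list genes tested passed, all lower in Myh11-low cells (4.62%, against 0.825% of all genes lower). Mmp17, a membrane-type MMP anchored by a lipid, was at 1.57 and 0.682 CPM against 13.7 and 10.7 CPM in Myh11-high cells, with a log2 fold change of −3.48 (SE 0.53, edgeR adjusted p = 0.0479). This was opposite in direction to the median of the members. Adamts8, a secreted proteoglycanase, gave −5.12 (SE 0.55, edgeR adjusted p = 0.0258), and Acan, the cartilage proteoglycan aggrecan, gave −5.93 (SE 0.87, edgeR adjusted p = 0.0442), at 0.91 and 0.629 CPM against 75.4 and 15.2 CPM. With the block, 17 list genes were higher and 11 lower (26.2% and 16.9%, against 7.53% and 8.51% of all genes).

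The 4 TIMPs summed to 3539 and 2755 CPM in Myh11-high cells, 5073 and 5080 CPM in Myh11-low cells, 4465 and 3911 CPM in Il1rn+ cells and 1882 and 1537 CPM in ECs. Between Myh11-low and Myh11-high cells, 0 of 5 inhibitors passed and their median log2 fold change was 1.02. The median was −0.36 for Il1rn+ against Il1rn− cells, where none passed. With the replicate block, 4 of 5 were higher in Myh11-low cells, against 7.53% of all genes: Timp3 (1.04, edgeR adjusted p = 0.0046), Reck, a membrane-bound MMP inhibitor (1.09, edgeR adjusted p = 0.0101), Timp1 (0.73, edgeR adjusted p = 0.0391) and Tfpi2 (1.38, edgeR adjusted p = 0.046). In ECs against Myh11-low cells, Timp2 and Timp3 fell, with log2 fold changes of −1.44 (SE 0.19, edgeR adjusted p = 0.00442) and −1.91 (SE 0.23, edgeR adjusted p = 0.00344), and the median over the 5 was −1.44.

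The 7 lists gave 7 higher and 11 lower of 65 genes tested in ECs against Myh11-low cells (10.8% and 16.9%, against 9.43% and 6.84% of all genes), so the share of higher genes was near that of all genes. Of the activators and plasminogen system, Plat, the tissue plasminogen activator, was higher by 3.51 on the log2 scale (SE 0.33, edgeR adjusted p = 0.00127), Plaur, the urokinase receptor, by 2.06 (SE 0.47, edgeR adjusted p = 0.0307) and Furin, a proprotein convertase that activates membrane-type MMPs, by 1.39 (SE 0.19, edgeR adjusted p = 0.00518). Lrp1, an endocytic receptor that clears proteases, gave −1.92 (SE 0.30, edgeR adjusted p = 0.00799). Of the ADAM and ADAMTS proteases, 1 was higher (Adam10) and 4 were lower (Adam9, Adam33, Adamts2 and Adamts5). Of the cathepsins, Ctsk was lower, at −1.98 (SE 0.39, edgeR adjusted p = 0.0196). The regulators Nfkb1, Ets1 and Ets2 were higher, by 1.04, 2.16 and 2.05, and the matrix genes Col1a2, Col3a1 and Dcn were lower, at −1.97, −2.09 and −1.66. No other MMP passed. Il1b had no UMI in either replicate and Il1a had 0 and 2.

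In the 3 comparisons by Gpnmb and Il1rn, none of the 66 or 67 list genes tested passed. The log2 fold changes of the 14 genes highest in level, 2 for each list, lay between −0.45 (Mmp16) and 0.70 (Mmp27) for Gpnmb, between −0.92 (Mmp16) and 0.36 (Mmp27) for Il1rn, and between −0.85 (Mmp16) and 0.70 (Mmp28) for Il1rn against Gpnmb. With the block, Timp2 was lower (−0.73, edgeR adjusted p = 0.00106) and Il1r1, the interleukin-1 receptor, higher (1.31, edgeR adjusted p = 0.0326) in the last of these.

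Over the 14 sums of 7 disjoint classes in 2 replicates, genes with the most similar level (Pearson r of log2(CPM + 1), among 9203 genes) were named for 7 members. Mmp14 was most like Cdh11 (0.984), a mesenchymal cadherin, Pdgfrb (0.978), the platelet-derived growth factor receptor beta of mural cells, and Peak1 (0.976). Mmp23 was most like Adamts2 (0.989), Tead1 (0.984) and Vasn (0.982). Mmp19 was most like Tiam1 (0.984), Arhgap42 (0.982) and Sned1 (0.982). Mmp12 reached the mean of 10 CPM required here only in Myh11-low cells with both Gpnmb and Il1rn UMIs (38.5 and 17.9 CPM). Its highest values, with the myeloid genes Tyrobp (0.982), Ctss (0.98) and Trem2 (0.974), restate the few cells with macrophage markers. Tyrobp is itself among those markers, so no result is read from these values. The others had lower values: Mmp2 with Spg21 (0.968), P2rx4 (0.966) and Glmp (0.958), Mmp3 with Sri (0.943), Ifit3 (0.943) and Ctsk (0.933), and Mmp11 with Ptprf (0.931), Taok3 (0.931) and Lrp1 (0.927). The 14 sums come from 2 cultures and share depth and preparation, so these values are a description.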

How the data were processed

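Droplet single-cell RNA sequencing libraries of 2 biological replicates were analysed from the UMI counts per gene and barcode that the authors deposited, made with Cell Ranger on mm10 (version 3.0.2 per the labels; the file headers give 3.0.2 for replicate 1 and 3.1.0 for replicate 2). All barcodes are in the files, unfiltered. A barcode counted as a cell if it held 300 or more genes and 3000 or more UMIs with less than 20% of them mitochondrial, and doublets were not removed. Levels are CPM of counts summed per replicate and cell set. Intervals are 95% exact binomial intervals, an upper limit for a count of 0 is 3 counts, and both cover counting error only. Free RNA was taken from barcodes with at most 100 UMIs.

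For tests, counts were summed per replicate and disjoint class and fitted with edgeR 4.0.16 in R 4.3.3 (TMM, filterByExpr, quasi-likelihood F test, Benjamini-Hochberg, threshold 0.05), all classes sharing a spread. Without the block, p-values measure the spread between 2 cultures. With it, they measure the spread that remains once the difference between the cultures is taken out. An exact permutation test of 2 against 2 cannot go below 0.33. Classes of a replicate come from the same culture, and their deviations from the class means correlated (r = 0.701, 0.856, 0.81, 0.449 and 0.455 over genes, in the order Myh11, Gpnmb, Il1rn, EC, Il1rn against Gpnmb), so the replicate number pairs them. Alternatives were that block, DESeq2 1.42.0, no filter on low counts, gates in CPM, stricter gates, a 1000 UMI minimum, removal of the 5% of cells with most UMIs, free RNA subtraction, UMI-matched classes and each replicate alone. Leaving out cells with at least 3 macrophage markers was added after seeing the data. All 10 members are named; list genes are named if they passed (at most 4 per list) or, where none did, through the 2 highest in level, with further genes under the block chosen after their values were seen. The members and lists were chosen with earlier results of these data known. Coordinates are from GENCODE M21, with 30934 of 31053 gene IDs matched. Cell Ranger counts reads on the strand of the gene.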

Additional observations from a re-analysis of the deposited data

How the results depend on the processing

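With 2 replicates, the spread rests on few degrees of freedom, and counts of calls moved with the setting. Between Myh11-low and Myh11-high cells, 125 genes passed, against 2081 with the replicate block, 804 by DESeq2, 11 without the filter on low counts, 333 with gates in CPM, 628 with stricter gates and 54 in UMI-matched classes. By Gpnmb, 0 passed, against 1 each with the block, by DESeq2 and without the filter. By Il1rn, 0 passed, against 24 by DESeq2 and 4 without the filter. In ECs, 2110 passed, against 4294 with the block and 1365 in UMI-matched classes. For Il1rn against Gpnmb, 1 passed, against 81 with the block, 22 by DESeq2, 8 without the filter, 8 with stricter gates and 0 in UMI-matched classes. The blocked fit changed the calls of Mmp2, Mmp3 and Mmp19 against Myh11-high cells and of Mmp19 in ECs. Mmp12 met the count filter only through Myh11-low cells in these comparisons, so no call is read for it under any setting. The blocked fit changed no call of the other members. The counts of log2 fold changes below, also of those that passed newly, still include Mmp12. The log2 fold change of Mmp12 moved from 2.91 to between 1.11 and 5.50 by Gpnmb and from 3.09 to between 2.85 and 7.83 by Il1rn. Of the log2 fold changes of the members over the alternatives, 304 kept their direction and side of the threshold, 11 passed newly, 5 no longer passed and 10 changed sign, none of the last having passed: for Gpnmb, Mmp23 (0.01 with the block and with gates in CPM, 0.09 UMI-matched); for Il1rn, Mmp2 (−0.05, stricter gates), Mmp3 (0.03, UMI-matched) and Mmp11 (−0.07, UMI-matched); for Il1rn against Gpnmb, Mmp12 (−7.14 with gates in CPM, −5.11 with stricter gates) and Mmp19 (−0.20 with the block, −0.19 UMI-matched). The causes were not tested. These counts leave out each replicate alone. There, 46 of the log2 differences lay within the SD of the replicates around the log2 fold change from both. The other 20 lay further off or had no SD. Leaving out cells with macrophage markers changed no call of another member, and Mmp12 could then not be tested. Of the shares of cells with a UMI, 36 of 50 moved by more than the spread between replicates after thinning. Thinning can only lower a share, so this count does not show how far differences between the sets depend on depth.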
